A study of Mus musculus with 3 samples.

Results

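The genes of central carbon metabolism were examined on the chromatin of mouse macrophages shortly after a bacterial signal. The set held 42 genes, found by symbol among the 55536 genes of the tables: 17 of glycolysis, 7 of the pentose phosphate pathway, 17 of pyruvate dehydrogenase and the tricarboxylic acid (TCA) cycle, and Acod1, which makes itaconate. All 42 were found. They were chosen by name, not by a measured value, though with earlier results of these data known. The libraries were made from the chromatin fraction of primary bone marrow-derived macrophages of C57BL/6J mice, which received lipid A, the lipopolysaccharide anchor recognised by Toll-like receptor 4, at 100 ng/ml for 20 min. RNA was depleted of ribosomal RNA and sequenced in 3 libraries of this 1 group, built from 1000, 250 and 500 ng of RNA in replicates 1, 2 and 3. The labels give no genetic change and no sex or age, and no untreated sample was analysed here, so the values are levels after lipid A and not responses to it. Each library has its own biosample but all share 1 donor entry, and nothing says that the cells came from separate animals, so the spread between libraries may be technical.

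Glycolysis splits glucose into pyruvate in the cytosol, with irreversible steps at hexokinase, phosphofructokinase and pyruvate kinase. The pentose phosphate pathway branches off at glucose 6-phosphate and yields NADPH and ribose. Pyruvate dehydrogenase feeds acetyl units into the TCA cycle in mitochondria, and in activated macrophages Acod1 draws cis-aconitate out of that cycle. RNA that sticks to chromatin is rich in transcripts still being made or spliced, so these levels do not stand for the messenger RNA of the whole cell or for enzyme amounts.

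Total expected counts per gene table lay between 12439931 and 16317439, and the 42 genes held 0.169% to 0.181% of the counts of annotated genes. Levels are given in TPM, the authors' read counts scaled for transcript length and then to a fixed total per library, so that genes can be compared. Small nucleolar RNAs held 55.7%, 46.4% and 40.4% of the TPM in replicates 1, 2 and 3, and coding genes 15.8%, 18.0% and 24.7%. All 10 macrophage markers reached 1 TPM in every library, with summed levels of 711, 699 and 1160 TPM, while none of the markers of 7 other blood and tissue cell lists did. Neutrophil markers summed to 1.01, 1.56 and 2.4 TPM, and each of the other lists to at most 1.34 TPM in any library. The fibroblast list differed between libraries, at 0.02, 1.07 and 1.04 TPM. A second quantification of the same libraries gave means above 1 TPM for several markers of these lists. The highest were Cd8a at 2.825 TPM and Zbtb46 at 2.444 TPM. How reads were assigned to strands is not given, so overlapping genes on opposite strands cannot be told apart.

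All 42 genes reached 1 TPM in every library, against 40.6% of the 22028 protein-coding genes. At 10 TPM in every library, 14 of the 42 were left: 6 of glycolysis, 1 of the pentose phosphate pathway, 7 of pyruvate dehydrogenase and the TCA cycle, and not Acod1. The share of all coding genes at that level was 15.2%, or 3343 genes, all of them among the 8942 that reached 1 TPM in every library. Since all 42 genes were detected, the 8942 are the closer comparison. Over the 42 genes, the median level was 9.92 ± 2.18 TPM (SD, n = 3), beside 9.02 ± 2.6 TPM for the 8942 coding genes that reached 1 TPM in every library. Measured against detected genes, then, the set sat near the middle of the range, with single genes far above it. In bulk RNA, fewer cells with a transcript and less of it per cell cannot be told apart.

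The 3 pathways had similar median levels. The median glycolysis gene stood at 8.55, 9.71 and 12.28 TPM in replicates 1, 2 and 3, the median pentose phosphate gene at 5.64, 8.4 and 11.46 TPM, and the median gene of pyruvate dehydrogenase and the TCA cycle at 7.1, 10.05 and 12.53 TPM. Each median was lowest in replicate 1 and highest in replicate 3, and the ranges of the 3 pathways overlapped. This order did not hold once TPM was rescaled over coding genes. The glycolysis medians were then 54.11, 53.8 and 49.71, those of the pentose phosphate pathway 35.69, 46.54 and 46.39. Those of the TCA group were 44.93, 55.69 and 50.72. Within libraries, the medians of log2(TPM + 0.1) of glycolysis exceeded those of the TCA group by 0.06 ± 0.18 (SD, n = 3), with the higher value in 1 of 3 libraries; without replicate 1 the mean difference was -0.04. Glycolysis exceeded the pentose phosphate pathway by 0.3 ± 0.26 and the TCA group exceeded it by 0.24 ± 0.1, each in 3 of 3 libraries; without replicate 1 the first of these was 0.15. With 3 libraries, the smallest two-sided p of an exact sign-flip permutation test is 0.25, so none of these differences can pass a threshold of 0.05. The sign of the last one also depended on length scaling: in CPM, counts scaled to library size but not to length, the TCA group lay below the pentose phosphate pathway by a log2 difference of -0.27.

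**Figure D1:**
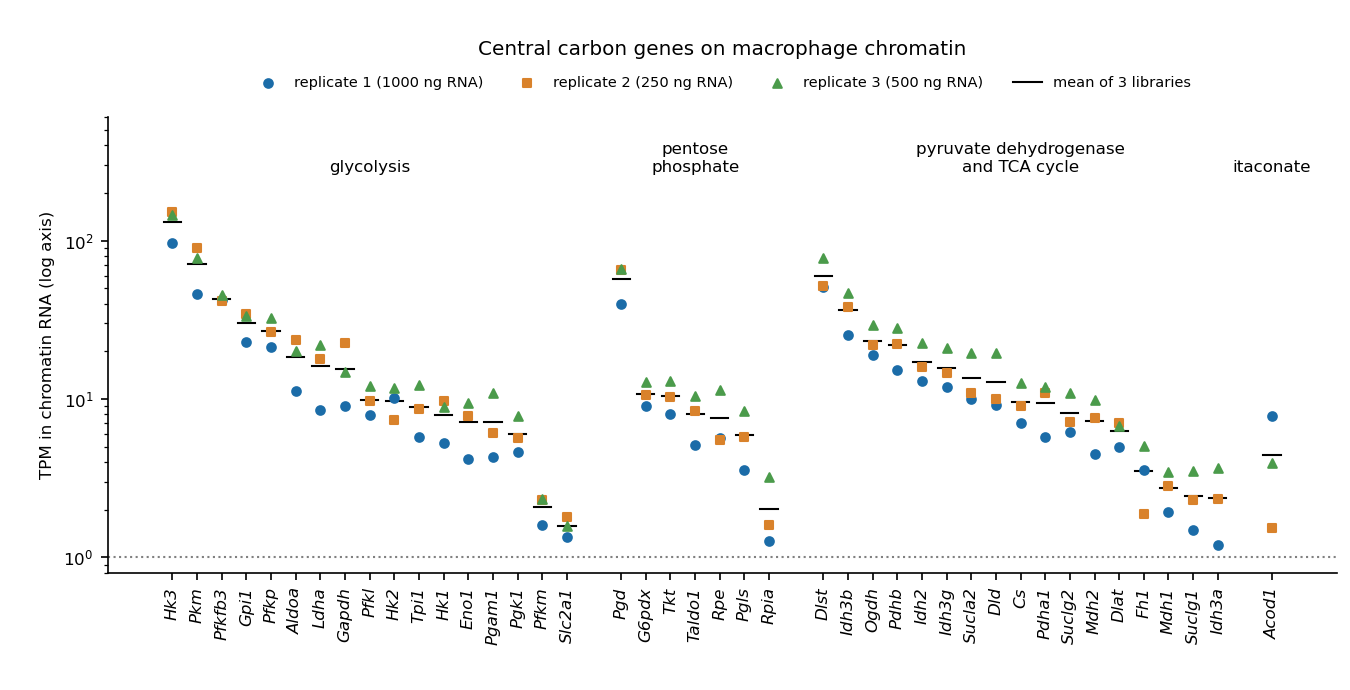
TPM on a log axis for each of the 42 genes, grouped by pathway and ordered by mean; points are the 3 libraries, bars their mean, and the dotted line 1 TPM. Levels run from 1.57 TPM for Slc2a1 to 131.5 TPM for Hk3, each pathway spans high and low genes, and Acod1 is highest in replicate 1.

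In the first set of tables, glycolysis held both the highest and the lowest mean level of the set. Slc2a1, the glucose transporter GLUT1, opened the pathway at 1.34, 1.79 and 1.58 TPM in replicates 1, 2 and 3, the lowest mean of the 42. This level rests on the first set of tables: the second set, a separate quantification of the same libraries, gave 6.99 ± 1.03 TPM, which is 4.45 times as much. The second set ran higher in general, with a median ratio of 1.57 over the 42 genes. Over coding genes at 1 TPM or more in every library it was 1.54. Slc2a1 was not the lowest gene there: Idh3a had a mean of 2.59 TPM. In the order of glycolysis genes by mean, the library ranges of 12 of 16 neighbouring pairs overlapped, while within libraries 8 of 16 kept their order in 3 of 3. The 3 top places did not overlap: Hk3, then Pkm, then Pfkfb3.

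Hexokinase traps glucose as glucose 6-phosphate, and Hk3 carried most of the transcripts of this step. Hk3 (chr13:55005985-55021385, minus strand, GRCm38) stood at 96.66, 152.5 and 145.3 TPM in replicates 1, 2 and 3, from 6037, 7705 and 4341 counts. Hk2 (chr6:82725025-82774454, minus strand), the isoenzyme known for its induction in growing cells, stood at 10.13, 7.32 and 11.7 TPM. Hk1 (chr10:62268855-62379908, minus strand), the form of most tissues, stood at 5.26, 9.65 and 8.9 TPM. Every library of Hk3 was above every library of the other forms, whereas Hk1 and Hk2 overlapped and changed order between libraries. Hk3 held 87.9% ± 1.89 (SD, n = 3) of the summed TPM of the 3 genes, and 90.5% ± 2.27 in the second tables. Hk1 lay below Hk3 by a log2 difference of -4.05 ± 0.11 and Hk2 by -3.74 ± 0.57, each in 3 of 3 libraries. Hk3 shares 34 exon bases with Unc5a on the other strand, which is 0.923% of its exon bases. Hkdc1, a further hexokinase family gene, had 1 count in 1 library.

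The promoters of Hk3 and Hk2 are shown to set the form with most transcripts beside the form known as inducible. Both run from 250 bases before to 50 after the start in RefSeq on GRCm38.p6, read 5′ to 3′ along the gene, at chr13:55021336-55021635 and chr6:82774405-82774704. Capitals mark matches to ACGTG, the core of the site of hypoxia-inducible factors, and to GGGCGG, the GC box, on either strand.
Hk3: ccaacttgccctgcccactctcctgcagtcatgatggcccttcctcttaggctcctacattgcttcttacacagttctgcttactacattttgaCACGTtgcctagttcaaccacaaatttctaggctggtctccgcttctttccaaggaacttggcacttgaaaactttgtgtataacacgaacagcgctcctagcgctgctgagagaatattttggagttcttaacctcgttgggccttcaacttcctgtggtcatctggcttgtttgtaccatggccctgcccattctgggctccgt
Hk2: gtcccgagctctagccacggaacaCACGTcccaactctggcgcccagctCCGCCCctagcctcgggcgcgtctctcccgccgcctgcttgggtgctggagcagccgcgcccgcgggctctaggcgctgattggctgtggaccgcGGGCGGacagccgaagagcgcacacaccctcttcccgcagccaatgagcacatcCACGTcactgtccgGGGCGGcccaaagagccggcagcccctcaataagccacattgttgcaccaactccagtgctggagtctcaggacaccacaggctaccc
The Hk2 promoter held 3 GC boxes and 2 ACGTG matches with a GC content of 67.3%, and the Hk3 promoter held 1 ACGTG match and no GC box with a GC content of 49.0%.

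Over the set, 41 of the 42 genes had promoters in that RefSeq table, 58 in all since some genes have several. Shares are given for these 58, for all 32851 promoters of the table, and for the 9239 promoters of coding genes at 1 TPM or more in every library. ACGTG was present in 44.8%, 19.6% and 26.3% of them, and was found in 15 of 28 glycolysis promoters, 1 of 8 pentose phosphate promoters and 9 of 21 promoters of pyruvate dehydrogenase and the TCA cycle. CACGTG, the E-box, which contains ACGTG, was present in 10.3%, 7.15% and 10.5%. GCGTG, the other form of the hypoxia site core, was present in 53.4%, 32.4% and 51.1%, and the GC box in 63.8%, 35.7% and 63.1%. CCGGAAG, a site of ETS factors, was present in 8.62%, 8.86% and 19.5%. TATAAA, the TATA box, was present in 3.45%, 13.6% and 6.87%, and a match to the NF-kB consensus in 15.5%, 8.46% and 10.4%. Promoters of 1 gene can overlap, and a match is a run of letters, not a bound site.

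Downstream of hexokinase, Gpi1, which turns glucose 6-phosphate into fructose 6-phosphate, stood at 22.95, 34.6 and 33.19 TPM in replicates 1, 2 and 3. Phosphofructokinase then commits the sugar to glycolysis, and here the platelet form Pfkp led. Pfkp stood at 21.27, 26.48 and 32.29 TPM, the liver form Pfkl at 7.9, 9.71 and 12.12 TPM, and the muscle form Pfkm at 1.61, 2.29 and 2.35 TPM. The 3 forms did not overlap. By TPM of the first tables, all 3 were lowest in replicate 1 and highest in replicate 3. In the second tables all 3 were lowest in replicate 2. After rescaling over coding genes all 3 were highest in replicate 2 and lowest in replicate 3. Their proportions hardly moved: Pfkp held 69.1%, 68.8% and 69.1% of their summed TPM, and 65.1% ± 1.66 (SD, n = 3) in the second tables. The log2 difference of Pfkl and Pfkp was -1.42 ± 0.02, the smallest SD of the 14 pairs compared. Pfkp shares 748 exon bases with Pitrm1 on the other strand, or 5.58% of its exon bases, and Pitrm1 stood at 11.94, 15.62 and 26.87 TPM. Pfkfb3, which makes the phosphofructokinase activator fructose 2,6-bisphosphate, stood at 42.06, 41.75 and 45.13 TPM, with a coefficient of variation (SD over mean) of 4.35%. After rescaling over coding genes it was 18.5%, with the highest value in replicate 1 and the lowest in replicate 3.

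**Figure D2:**
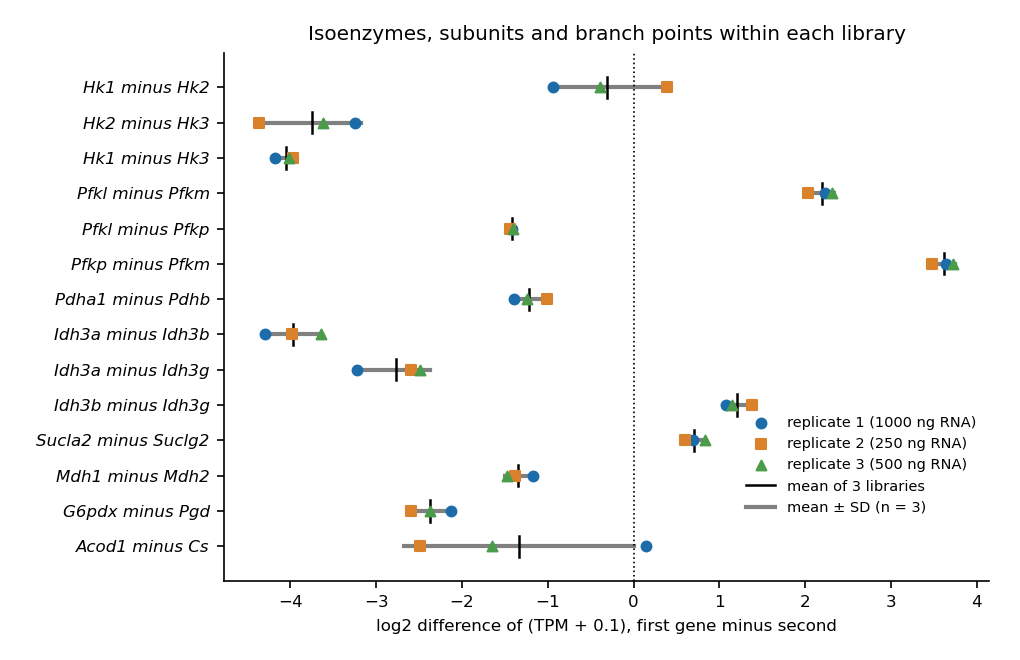
Difference in log2(TPM + 0.1) within each library for 14 pairs of isoenzymes, subunits of 1 complex and enzymes at branch points; points are libraries, black ticks means and grey bars the mean ± SD (n = 3). Hk1 against Hk2 and Acod1 against Cs cross 0, and the other 12 pairs keep 1 order in every library.

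The enzymes from aldolase to enolase lay in a narrower band. Aldoa, which splits the 6-carbon sugar, stood at 11.21, 23.41 and 20.2 TPM, and Tpi1, which interconverts the products, at 5.77, 8.61 and 12.28 TPM. Gapdh, the enzyme that oxidises glyceraldehyde 3-phosphate and a common reference transcript, stood at 8.99, 22.58 and 14.78 TPM in replicates 1, 2 and 3. Gapdh was thus the eighth gene of glycolysis by its mean of 15.45 TPM, ranked at the 86.4th percentile of coding genes, and varied by 44.1% between libraries. In the second tables it was one of only 2 of the 42 genes with a lower value, 10.7 ± 2.08 TPM. Pgk1, which makes the first ATP of the pathway, had a mean of 6.03 ± 1.59 TPM (SD, n = 3), Pgam1, a mutase, 7.11 ± 3.42 TPM, and Eno1, an enolase, 7.13 ± 2.67 TPM. These 3 means cannot be ordered beyond their spread. Ldha, which reduces pyruvate to lactate, stood at 8.55, 17.92 and 22.01 TPM.

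Isoenzymes of these steps that are known from other tissues were mostly low in the first tables, and the exception was an enolase. Eno2, the enolase named for neurons, stood at 16.94, 25.66 and 26.31 TPM, above Eno1 in every library. Eno3 and Pgam2, the muscle forms, had means of 2.54 and 1.33 TPM, but 7.1 and 7.66 TPM in the second tables. Aldoc and Ldhb had means of 0.387 TPM each, Pklr of 0.09 TPM and Ldhc of 0.06 TPM. Pgk2 and Gapdhs, the sperm forms, had 0 counts in every library, as did Pdha2 and Tktl2, and Tktl1 had a mean of 0.137 TPM. The second tables gave Gapdhs 2.75 TPM and Pklr 2.48 TPM. Where no count was found, up to 3 counts remain possible, which is 0.185 to 0.242 CPM (counts scaled to library size) here.

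Pyruvate kinase ends glycolysis, and Pkm (chr9:59656368-59679375, plus strand) was the second highest of the 42 genes. It stood at 45.87, 89.33 and 77.69 TPM in replicates 1, 2 and 3. Its transcripts take either of a pair of mutually exclusive exons, which give the M1 enzyme of muscle or the M2 enzyme of growing and immune cells. The exons are shown because they are what separates the products; both are 167 bases long and are read 5′ to 3′ on the plus strand of GRCm38, M1 at chr9:59675029-59675195 and M2 at chr9:59675568-59675734. Capitals mark the positions where they differ; 103 positions, or 61.7%, are identical.
Pkm M1 exon: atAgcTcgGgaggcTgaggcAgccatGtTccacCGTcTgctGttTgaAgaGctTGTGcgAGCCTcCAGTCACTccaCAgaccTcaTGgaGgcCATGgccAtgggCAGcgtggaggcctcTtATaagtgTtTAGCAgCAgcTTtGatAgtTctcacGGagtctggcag
Pkm M2 exon: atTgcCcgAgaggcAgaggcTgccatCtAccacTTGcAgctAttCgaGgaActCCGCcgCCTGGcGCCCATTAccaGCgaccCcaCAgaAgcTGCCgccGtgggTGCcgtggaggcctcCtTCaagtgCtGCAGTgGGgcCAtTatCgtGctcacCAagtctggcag
The transcript with the M2 exon, Pkm-201, stood at 11.57, 22.38 and 22.97 TPM, and the coding transcript with the M1 exon, Pkm-202, at 5.77, 8.89 and 4.19 TPM. M2 led in every library, with 66.7%, 71.6% and 84.6% of the sum of the pair. The second tables gave a mean share of 65.6% ± 10.3, against 74.3% ± 9.23 in the first (SD, n = 3). The 2 transcripts also differ at their ends, so the share does not rest on the exon pair alone. The leading Pkm transcript was neither: Pkm-205, a retained-intron form without either exon, held 35.9% ± 0.937 of the gene's TPM, though 15.7% in the second tables. Pkm shares 767 exon bases, 15.3% of its total, with the unconfirmed gene Gm49759 on the same strand, at 12.01, 14.13 and 22.81 TPM.

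In the pentose phosphate pathway, 1 gene stood far above the rest. Pgd, which oxidises 6-phosphogluconate to give NADPH and a pentose, stood at 39.88, 64.76 and 66.12 TPM in replicates 1, 2 and 3. G6pdx, the first and rate-limiting enzyme, stood at 9.02, 10.62 and 12.72 TPM. G6pdx was below Pgd in 3 of 3 libraries without overlap, by a log2 difference of -2.37 ± 0.23 (SD, n = 3). Pgls, the lactonase between them, stood at 3.57, 5.76 and 8.36 TPM. Some of these levels may hold reads of neighbours: G6pdx shares 418 exon bases (13.6%) with Ikbkg on the other strand, and Pgls shares 776 (20.6%) with Fam129c on the same strand.

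In the non-oxidative branch, which reshuffles sugars between pentoses and glycolysis, levels were lower than that of Pgd in every library. Tkt, transketolase, stood at 7.99, 10.23 and 12.98 TPM and Taldo1, transaldolase, at 5.09, 8.4 and 10.49 TPM. Rpe, the ribulose phosphate epimerase, stood at 5.64, 5.53 and 11.46 TPM, and shares 558 exon bases (17.9%) with Kansl1l on the other strand. Rpia, the isomerase, was lowest at 1.27, 1.6 and 3.2 TPM, but the second tables gave it 7.16 ± 3.22 TPM (SD, n = 3), which is 3.54 times as much. In the order of the 7 genes, 4 of 6 neighbouring pairs overlapped and 3 of 6 kept their order in 3 of 3 libraries.

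Pyruvate dehydrogenase joins glycolysis to the TCA cycle, and its subunits were unequal. Pdhb, the beta subunit of the first enzyme, stood at 15.18, 22.17 and 28.24 TPM, and Pdha1, the alpha subunit, at 5.72, 10.93 and 11.84 TPM in replicates 1, 2 and 3. Pdha1 was lower in every library, by a log2 difference of -1.22 ± 0.19 (SD, n = 3), and the ranges did not overlap. Pdha1 shares 603 exon bases (16.1%) with Map3k15 on the other strand. Dlat, the acetyltransferase core, stood at 5, 7.08 and 6.79 TPM, though at 3.1 times as much in the second tables, and Dld, the dehydrogenase also used by the oxoglutarate complex, at 9.14, 10.05 and 19.41 TPM.

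Among enzymes of the cycle itself, the oxoglutarate dehydrogenase complex had the highest gene. Dlst, its succinyltransferase, stood at 51.22, 51.91 and 77.35 TPM in replicates 1, 2 and 3, and Ogdh, its dehydrogenase, at 18.93, 21.8 and 29.14 TPM. Cs, citrate synthase, which opens the cycle, stood at 7.1, 9.01 and 12.53 TPM. Idh2, the NADP-dependent mitochondrial isocitrate dehydrogenase, stood at 13.01, 15.96 and 22.44 TPM. By TPM of the first tables, all 4 had their lowest value in replicate 1 and their highest in replicate 3. In the second tables all 4 were lowest in replicate 2 and highest in replicate 3. After rescaling over coding genes, Cs and Idh2 kept the order of the first tables, and Dlst and Ogdh did not.

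The 3 genes of the NAD-dependent isocitrate dehydrogenase, which work in 1 complex, had levels far apart. Idh3b, a regulatory subunit, stood at 25.27, 37.95 and 46.46 TPM, Idh3g, the other regulatory subunit, at 11.9, 14.52 and 20.89 TPM, and Idh3a, the catalytic subunit, at 1.19, 2.32 and 3.64 TPM. No ranges overlapped. Idh3a lay below Idh3b by a log2 difference of -3.97 ± 0.33 and below Idh3g by -2.77 ± 0.39 (SD, n = 3). The second tables gave differences of -3.86 and -2.45. Idh3a rested on 68, 92 and 89 counts.

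Genes of the later steps were mostly below the median of the set. Sucla2 and Suclg2, the ATP- and GTP-forming beta subunits of succinyl-CoA ligase, stood at 10.03, 10.98 and 19.44 TPM and at 6.19, 7.2 and 10.9 TPM. Sucla2 was higher in 3 of 3 libraries by a log2 difference of 0.71 ± 0.12 (SD, n = 3), but in the second tables in only 2 of 3, by 0.18. Suclg1, the alpha subunit they share, had a mean of 2.44 ± 1.03 TPM, and 3.18 times as much in the second tables. Fh1, fumarase, stood at 3.54, 1.89 and 5.04 TPM. Mdh2, the mitochondrial malate dehydrogenase, had a mean of 7.29 ± 2.69 TPM and Mdh1, its cytosolic counterpart, 2.74 ± 0.77 TPM, a log2 difference of -1.35 ± 0.16 for Mdh1 against Mdh2. In this group of 17, the ranges of 15 of 16 neighbouring pairs overlapped, with only Dlst, at the top, apart from its neighbour, and 8 of 16 pairs kept their order in 3 of 3 libraries.

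The wider pathway was read from 57 other genes of transport, regulation and side branches. Of these, 30 reached 1 TPM in every library and 5 had 0 counts in all 3. Among the highest were Sdha, the flavoprotein of succinate dehydrogenase, at 39.03 ± 8.95 TPM (SD, n = 3), Mpc1, of the mitochondrial pyruvate carrier, at 28.49 ± 9.11 TPM, and Glud1, glutamate dehydrogenase, at 28.42 ± 6.27 TPM. Copies of the 42 genes were searched by symbol only, so copies annotated under unrelated names were not covered. Of the 15 copies found, none reached 1 TPM in every library and 9 had 0 counts. The highest was Pgk1-rs7, at 0.04, 2.94 and 0 TPM, with 63.02 counts in replicate 2, where Pgk1 itself had 144.

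A gene's TPM sums coding transcripts and annotated noncoding ones, either retained-intron forms or processed transcripts, and 38 of the 42 genes have such noncoding isoforms. They held more than 50% of the TPM in every library in 17 of the 38 genes, beside 37% of 7454 coding genes with such isoforms. In the second tables the count was 21 of 38, beside 47.4%. The median share was 53.0% ± 3.23 (SD, n = 3) over the 38 genes and 48.1% ± 1.58 over the 7454. By pathway it was 38.8% ± 3.23 in glycolysis (15 genes), 58.4% ± 5.18 in the pentose phosphate pathway (6 genes) and 55.4% ± 0.879 in pyruvate dehydrogenase and the TCA cycle (17 genes). The glycolysis median was the lowest of the 3 in every library, and also by the second set, at 50.6% against 70.7% and 59.1%. By expected counts, which weight long transcripts, the medians were 31.6%, 52.5% and 27.8%, so the TCA group then lay lowest.

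By this share, single genes ran from mostly noncoding to mostly coding isoforms. Gpi1 had the highest share, 92.5%, 91.2% and 94.1% in replicates 1, 2 and 3, and its leading transcript was Gpi1-203, a retained-intron form with 44.2% ± 2.95 of the gene's TPM (SD, n = 3). Pfkp, Dlst, Tkt, Idh3g and Pfkfb3 followed with means of 89.8%, 84.9%, 84.4%, 82.1% and 80.1%. Of the most abundant genes, Dlst, Pgd (63.4%) and Pfkfb3 thus had most of their TPM assigned to noncoding isoforms. Hk3 was at 22.9% ± 5.17, though at 49.8% in the second tables. The share tells which annotated forms the reads were assigned to, not whether the RNA was coding. At the low end stood Idh3b, with 12.3%, 15.1% and 24.9%, and Hk2, with 19.1%, 15.9% and 25.8%. Idh3b and Idh3g, subunits of the same complex, were thus at opposite ends. A noncoding form was the leading transcript of 14 of the 42 genes, and of 34.6% of the 8942 coding genes detected in every library. Across the 38 genes, the share rose with the number of noncoding transcripts annotated (Spearman's rho 0.74, a description over genes that share libraries and annotation), and the shares of the 2 table sets had a rho of 0.83.

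**Figure D3:**
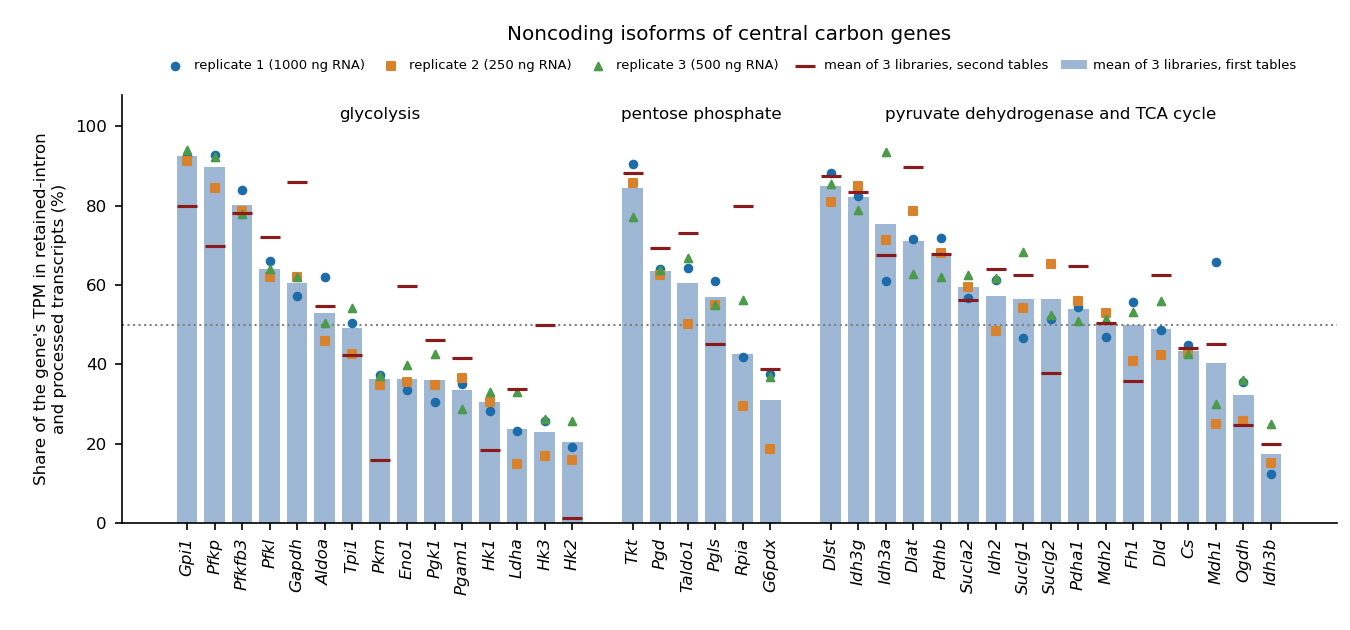
Share of each gene's TPM in retained-intron and processed transcripts, in percent, for the 38 genes that have such isoforms; bars are means of the 3 libraries, points the libraries, red dashes the mean in the second tables, and the dotted line 50%. Gpi1 is highest at 92.6% and Idh3b lowest at 17.4%, and the table sets differ most visibly for genes such as Rpia, at 42.5% and 79.9%.

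By TPM of the first tables, most of the genes shared the order of the libraries. TPM was lowest in replicate 1 for 37 of the 42 genes and highest in replicate 3 for 33; of the 8942 detected coding genes, 72.8% were lowest and 88.9% highest in those libraries. After TPM was rescaled over coding genes, 25 were lowest in replicate 1 and 24 were highest in replicate 2, beside 39.5% and 34.2% of the detected coding genes. In the second tables, 23 of the 42 genes were lowest in replicate 1 and 19 in replicate 2, while 37 were highest in replicate 3. Shares over all coding genes were not computed for the second tables. Acod1 was highest in replicate 1 in both scales and in the second tables. By TPM it was the only one of the 42 genes with its highest value there, after rescaling 1 of 5, and by the second quantification it was 1 of 3.

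Acod1 (chr14:103046977-103056573, plus strand), the enzyme that makes the antimicrobial metabolite itaconate, stood at 7.84, 1.53 and 3.94 TPM in replicates 1, 2 and 3, from 530, 77 and 130 counts. Its mean of 4.44 ± 3.18 TPM came with a coefficient of variation of 71.8%, the highest of the 42. The second tables gave 12.95, 2.17 and 5.65 TPM, in the same order of libraries. Against Cs, whose citrate is the source of cis-aconitate, Acod1 was higher by a log2 difference of 0.14 in replicate 1 and lower by -2.48 and -1.64 in replicates 2 and 3. Its level relative to the cycle was thus not fixed over the libraries. No other gene overlaps its exons, and it has 1 annotated transcript.

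Its promoter is shown because Acod1 is the gene of the set that differs most between libraries. It covers chr14:103046762-103047061 of GRCm38.p6, the same window around the RefSeq start, 5′ to 3′ along the gene, and capitals mark TATAAA and a match to ACGTG.
Acod1: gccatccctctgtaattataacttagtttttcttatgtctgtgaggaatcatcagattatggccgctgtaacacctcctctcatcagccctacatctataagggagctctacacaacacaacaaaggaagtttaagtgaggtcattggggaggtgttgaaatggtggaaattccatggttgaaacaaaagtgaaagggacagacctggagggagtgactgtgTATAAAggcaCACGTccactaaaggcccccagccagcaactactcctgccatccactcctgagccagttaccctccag
The TATAAA match begins 28 bases before the RefSeq start. The gene span given above begins at 103046977, upstream of this match, so the distance depends on the annotation used. No GC box or match to the NF-kB consensus was found in this window.

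The only label that differs between libraries is the amount of starting RNA, so a slope on its log2 was fitted to the expected counts of 13985 genes with edgeR's quasi-likelihood test. There is 1 library per amount, so the amount and the library cannot be told apart. The fit leaves 1 residual degree of freedom per gene. Its p-values therefore lean on spread pooled across genes and do not measure whether an amount effect would repeat. At an adjusted p below 0.05, 1.03% of the genes were higher with more RNA and 0.114% were lower. Of the 42 genes, Acod1 passed upward and none passed downward. In edgeR, 6 of the 42 had an unadjusted p below 0.05, a larger share than the 6.97% of all genes tested. Besides Acod1 these were Aldoa, Tpi1, Gapdh, Pkm and Ldha, all of glycolysis and all with downward slopes. With DESeq2, only 1 of the 42 had such a p, beside 453 of 24261 genes. The slope of Acod1 was 1.3 in log2 per doubling of the amount (edgeR, adjusted p = 5.53e-05), and DESeq2 gave 1.28 ± 0.28 (SE) with an adjusted p of 0.00321. The median slope of the 42 genes was -0.14, against 0.003 for all genes tested, but -0.27 without replicate 1 and 0.001 without replicate 2. The nearest downward slopes were those of Gapdh, at -0.45 (edgeR, adjusted p = 0.354), and Aldoa, at -0.42 (adjusted p = 0.414). With replicate 1 left out the slope of Acod1 was 0.72, with replicate 2 left out 1.8 and with replicate 3 left out 1.27, each from 2 libraries and without a test.

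Of the 57 other pathway genes, 38 entered this fit, 1 passed upward and none passed downward. That gene was Slc2a6, a glucose transporter family member, named here after its values were seen. It stood at 22.46, 4.05 and 14.64 TPM in replicates 1, 2 and 3, with a slope of 1.39 (edgeR, adjusted p = 5.22e-06) and a DESeq2 slope of 1.38 ± 0.21 (SE). Both genes that passed were highest in replicate 1 and lowest in replicate 2, the libraries with the most and the least RNA. This order follows from selecting genes by an upward slope and is not a separate result.

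**Figure D4:**
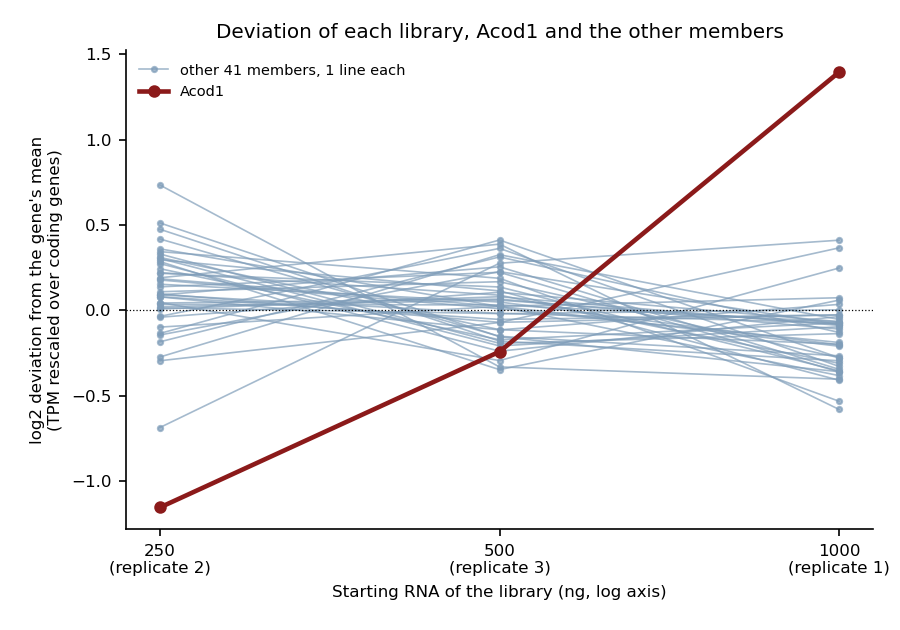
Deviation of each library from the gene's mean, in log2 of TPM rescaled over coding genes, against starting RNA in ng on a log axis; each thin line is 1 of the other 41 genes and the thick line is Acod1. Acod1 runs from -1.15 at 250 ng to 1.4 at 1000 ng, while the other genes stay between -0.69 and 0.73.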

How the data were processed

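Ribosome-depleted chromatin RNA of 3 libraries of 1 group was analysed from the tables made per library. Per the file headers and the text listing of each library, the authors assigned reads to annotation M21 of mm10 without pooling replicates. Expected counts per gene and transcript, TPM and posterior mean TPM were deposited by the authors in one set of tables, made from transcriptome alignments; a second set, made from reads without an alignment, holds estimated counts and TPM per transcript and was summed per gene. A pair of signal columns deposited by the authors bounds each TPM by a credibility interval of unstated level. Not given in the sources used here: aligner, other tools, versions and strand setting. TPM is scaled over all entries of a table, small RNAs included, and reads in introns count only where an annotated transcript covers them.

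Genes were matched by symbol. Aldoa has 2 gene rows; the one that overlaps most of the RefSeq gene was used, and the other had a mean of 0.29 TPM. Differences were taken after log2 (TPM + 0.1), so those of genes near 0 are too small. For the slope, expected counts were rounded and fitted with edgeR 4.0.16 in R 4.3.3 (TMM factors, filterByExpr, Benjamini-Hochberg adjustment over all genes tested). DESeq2 1.42.0 was an alternative. The fit was also run on simulated counts, with slopes larger than that of Acod1 and no library effect. That run cannot tell how the fit behaves where amount and library coincide. Spike-in and other unannotated entries were left out. Exon overlaps and sequences of exons came from GENCODE on GRCm38 and promoters from RefSeq on GRCm38.p6. Python 3.11.15, numpy 2.4.6, pandas 2.3.3 and matplotlib 3.10.9 were used. The 42 genes and all lists were chosen with earlier results of these data known. All 42 are named; of the other pathway genes, the 5 highest by mean TPM and the isoenzymes of other tissues, and of the copies the highest; some genes under this rule are not reported here.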

Additional observations from a re-analysis of the deposited data

How the results depend on the processing

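Of 210 values recomputed under the alternatives, 153 stayed the same by the rule for their kind, 53 moved and 4 reversed. For levels, differences and shares the rule was a shift below the SD over libraries, and for differences also an unchanged sign. For counts it was a ratio within a set limit. For the Acod1 slope it was a positive sign and an adjusted p below 0.05, and slopes with a library left out all counted as moved. The log2 median levels of glycolysis, the pentose phosphate pathway and the TCA group (3.32, 3.02 and 3.27) became 4.15, 3.99 and 3.95 in the second tables and 5.67, 5.34 and 5.6 when TPM was rescaled over coding genes, which changes the scale. Glycolysis minus pentose phosphate was 0.57 in posterior mean TPM and 0.15 to 0.4 with a library left out. Glycolysis minus TCA was 0.39 in posterior mean TPM, 0.41 in CPM and -0.039 to 0.118 with a library left out, reversing without replicate 1. TCA minus pentose phosphate was 0.076 in the second tables and reversed to -0.27 in CPM. Hk1 minus Hk2 reversed to 0.24 in posterior mean TPM and was -0.662 to 0.002 with a library left out, reversing without replicate 1. The noncoding shares of 38.8%, 58.4% and 55.4% became 50.6%, 70.7% and 59.1% in the second tables and 31.6%, 52.5% and 27.8% in expected counts; with retained introns only, those of the last 2 groups were 51.6% and 49.9%. Genes called for a slope went from 160 to 66 with DESeq2 size factors, 284 without the filter on low counts and 74 with DESeq2. Acod1 was called in each, with adjusted p from 2.86e-08 to 0.00907 (edgeR or DESeq2), but every setting used the same libraries. With a library left out its slope was 0.72 to 1.8, untested. The cause of these shifts was not tested. No paired analysis was possible because there is 1 group. At 2 TPM in every library, 34 of the 42 genes were detected; genes with under 100 counts, such as Mdh1 (51 to 61), are the least precise.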
